A study of Mus musculus with 7 samples.

Results

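Chemokines are small secreted or membrane-bound proteins that guide migrating cells, and their receptors are G protein-coupled proteins on the surface of those cells. The genes described here are all those in the deposited matrix whose symbol is Ccl, Cxcl, Ccr or Cxcr followed only by digits, plus Cx3cl1, Cx3cr1, Xcl1 and Xcr1. They are 34 of the 16272 genes measured, 19 ligands and 15 receptors. Of these, 22 (14 ligands and 8 receptors) had at least 100 transcript molecules in all cells, and the other 12 had 12 to 80.

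A receptor passes its signal through inhibitory G proteins to the enzymes and cytoskeletal regulators that steer a cell up a gradient of ligand. CC, CXC, XC and CX3C name the spacing of the first cysteines of a chemokine, and several ligands can share a receptor. In the kidney the resident macrophages carry Cx3cr1, and endothelium and tubules are known sources of its ligand Cx3cl1.

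The cells came from whole kidneys of 7 adult C57BL/6 mice, 4 to 8 weeks old per the labels. Per the labels 4 mice were WT and 3 carried a Cre with the mTmG reporter, among them 1 Cdh16CremTmG and 1 SclCremTmG mouse. In these the mTmG reporter switches from a red to a green membrane protein under a Cre driven in kidney tubule epithelium (Cdh16) or in blood and endothelial lineages (Scl). All mice were untreated as far as the labels say, and their sex is not stated. Kidneys were dissociated and the 3′ ends of transcripts were sequenced by the 10x droplet method, in which a random tag, the unique molecular identifier (UMI), lets every captured transcript be counted once.

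The matrix held 43745 cells (57979 are stated in the labels) in 16 clusters set by the authors, and in 7 libraries, told apart by the digit at the end of the cell barcodes. Nothing in the labels ties this digit to a mouse, so the libraries are called 1 to 7 and form 1 group, and no genotype was compared. They held 1383 to 14136 cells and 4217169 to 49997616 UMIs, with a median of 1630 to 3115 UMIs per cell. There were 974 barcode sequences that occurred in more than 1 library, in 1962 cells. In cluster 3 the X-linked transcript Xist stood at 3338 CPM (counts scaled to a common total) in library 7 and at 0 to 0.504 in the others, and the Y-linked Ddx3y was at 0 in library 7 only. T-like cells made up 10.85% and 13.98% of libraries 3 and 4 and 0.730% to 3.30% of the rest.

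Clusters are named here by markers, where their markers fit. Cluster 1 was endothelial-like (1001 cells), 2 podocyte-like (78), 3 proximal tubule-like (26482), 4 loop of Henle-like (1581), 5 distal convoluted tubule-like (8544), 6 principal-like (870) and 7 intercalated-like (1729). Cluster 8 (110 cells) carried principal and intercalated markers together and cluster 9 (601) proximal and cycling genes. Cluster 11 was macrophage-like (228), 12 neutrophil-like (74), 13 B-like (235), 14 T-like (1308), 15 natural killer-like (313) and 16 cycling lymphocytes (42). Cluster 10 (549 cells) stays unnamed, since 6 of 7 monocyte markers and all 5 dendritic cell markers were highest in it (Ccr2 and Xcr1 are among them). Of the 8 measured fibroblast and mural cell markers, 7 were highest in cluster 1, where they summed to 305 CPM with a range over libraries of 0 to 719.

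Levels are CPM of the UMIs summed over a library's cells of a cluster, for libraries with at least 5 such cells, given as mean ± SD over libraries. Tests are edgeR's quasi-likelihood test on those sums with the library as a block, adjusted by the Benjamini-Hochberg method over the 7952 genes that passed the count filter, with a threshold of 0.05. The p-values measure only the spread between these libraries. The authors set the clusters on the same counts, so a test between clusters is not independent of them.

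Chemokine transcripts were concentrated in the few immune cells. Clusters 10 to 16 held 6.28% of the cells but 74.8% of the ligand UMIs and 88.7% of the receptor UMIs. Of the 47081 UMIs of all 34 genes, Ccl5 alone gave 56.0%. Without Ccl5 the balance of the ligands turned round, with 64.9% of their UMIs in clusters 1 to 9, which hold 93.7% of the cells. All 15 receptors had their highest mean level in an immune cluster. So had 14 of the 19 ligands, and the exceptions were Cx3cl1 (cluster 1), Cxcl12 and Ccl25 (cluster 2), Ccl28 (cluster 3) and Cxcl1 (cluster 9). By number of genes, the neutrophil-like cluster came first with 7 and the macrophage-like cluster next with 6. This order was not firm. Without library 4, with its 7 neutrophil-like cells, Ccl9 was highest in cluster 10 and Ccl3 in the macrophage-like cluster. With at least 20 cells per sum, only library 6 was left in the neutrophil-like cluster, which was then not ranked. For 17 of the 22 better-measured genes, the range over libraries in the highest cluster overlapped that in the next one. Within libraries the order could still hold, as in 7 of 7 libraries for Ccr9 (cluster 10 over 13), 6 of 6 for Ccl28 (3 over 6) and 5 of 5 for Ccl6 (12 over 10).

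**Figure D1:**
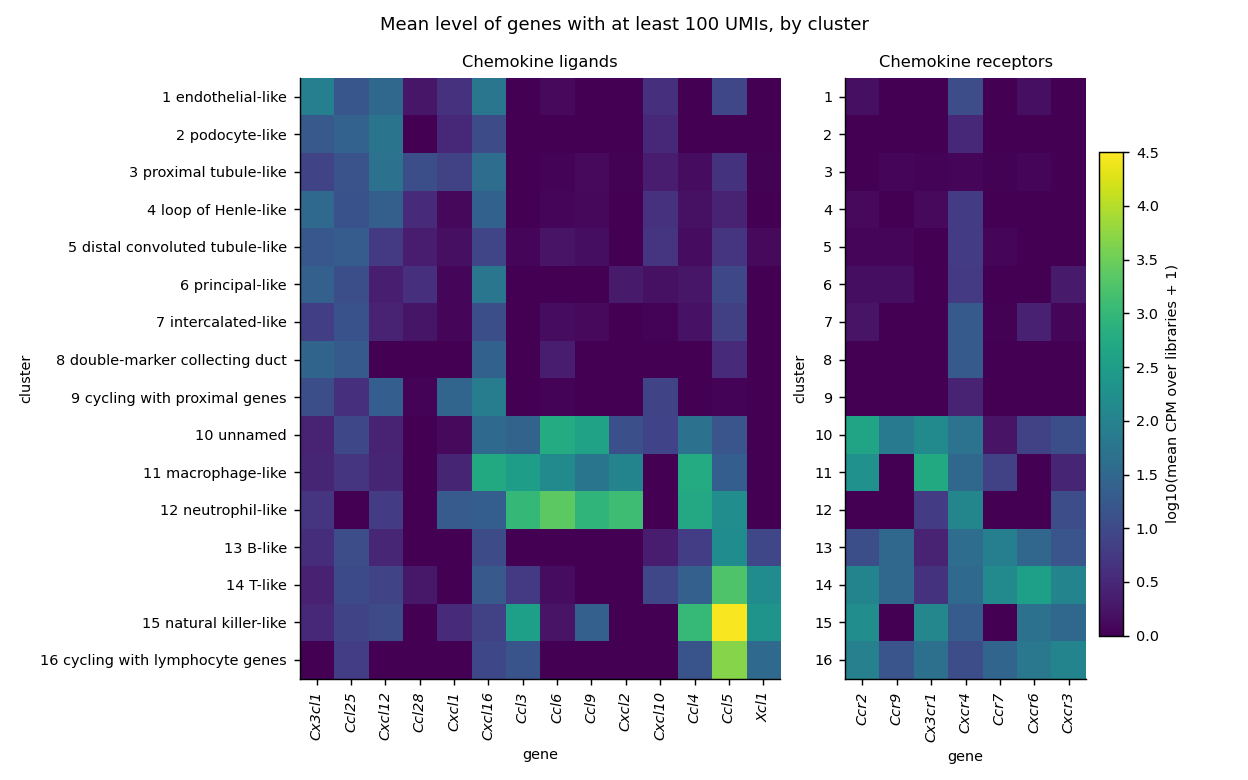
Mean CPM over libraries of the 14 ligands and 7 of the receptors with at least 100 UMIs (columns) in clusters 1 to 16 (rows), coloured by log10(CPM + 1). Lighter colours are higher levels: apart from Cxcr4 the receptors shown are light only in rows 10 to 16, while Cxcl16, Cx3cl1, Cxcl12 and Ccl25 are also seen in the kidney rows.

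In the contrast of immune clusters 10 to 15 with clusters 1 to 8, 5 of the 22 members tested were higher and 1 was lower, where 16.1% and 36.6% of all genes tested were. The members' median log2 difference was 4.38, against -0.29 over all genes. Higher were Ccl5 (log2 difference 6.89 ± 0.75 SE, edgeR adjusted p = 7.87e-14), Cxcr4 (2.83 ± 0.27, 1.32e-16), Cxcr3, Cx3cr1 and Ccl4. Cx3cl1 was lower (-2.46 ± 0.43, edgeR adjusted p = 5.29e-07). A cluster with 0 UMIs of a gene has no finite log level in this fit, which was so for 19 of the 22 members, 4 of them called. The members' median rests mostly on such values and is not read as the size of a difference. A gene could also pass the count filter through the immune clusters alone. With 1 coefficient per set of clusters, a fit added after seeing the data, 20 members were higher and 2 lower, and with DESeq2's Wald test 16 and 2. Without library 5 or 6 the call for Cx3cr1 was lost, without library 6 that for Ccl5 and without library 7 that for Cxcr3. The other 12 members did not pass the count filter and enter none of these counts. They are not the same 12 as those with under 100 UMIs. Ccl25, Cxcl1, Ccl28 and Cxcl10 had more and were not tested, while Cxcr2, Ccr1, Ccr10 and Ccl12 had fewer and were.

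Several of the ligand genes lie side by side on chromosome 11 (coordinates are GRCm38 with GENCODE vM21 genes). In order these are Ccl5 (chr11:83525778-83530518), Ccl9 (chr11:83572919-83578636), Ccl6 (chr11:83587882-83593087), Ccl3 (chr11:83647844-83649355) and Ccl4 (chr11:83662584-83664683). Ccl9 and Ccl6 are 9245 bases apart, and Ccl3 and Ccl4 are 13228 bases apart. Cxcl1 and Cxcl2 are neighbours on chromosome 5 at a distance of 10755 bases.

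The sequences upstream of these neighbours are shown because Ccl6 and Ccl9 both had their highest means in clusters 12 and 10 while Cxcl1 and Cxcl2 were not. Each line is the 120 bases before the RefSeq start (GRCm38.p6), 5′ to 3′ on the gene's strand, and capitals mark matches to 4 short motifs on either strand: the kappaB motif (GGG and TTTCC with any 2 bases between them), TATAAA, the AP-1 motif TGANTCA and the ETS motif GGAAGTG. In Ccl9 the TATAAA matches of both strands overlap and are marked together.
Cxcl1, chr5:90891125-90891244, plus strand: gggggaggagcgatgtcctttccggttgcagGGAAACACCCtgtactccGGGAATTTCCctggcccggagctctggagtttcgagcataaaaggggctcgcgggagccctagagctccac
Cxcl2, chr5:90903779-90903898, plus strand: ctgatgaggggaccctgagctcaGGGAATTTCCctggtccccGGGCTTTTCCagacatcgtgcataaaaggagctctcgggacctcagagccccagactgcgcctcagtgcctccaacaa
Ccl9, chr11:83578637-83578756, minus strand: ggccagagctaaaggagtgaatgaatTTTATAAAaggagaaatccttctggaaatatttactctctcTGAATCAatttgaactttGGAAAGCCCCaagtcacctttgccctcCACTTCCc
Ccl6, chr11:83593088-83593207, minus strand: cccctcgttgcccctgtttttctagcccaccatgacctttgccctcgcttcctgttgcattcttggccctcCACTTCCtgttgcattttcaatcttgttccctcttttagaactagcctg

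RefSeq promoters of 300 bases were at hand for 26 of the 34 genes, and motifs were sought in the 250 bases before the start. The kappaB motif was in 3 of these (Cxcl1, Cxcl2 and Ccl9) and in 1.4% of the 27025 gene promoters, with 2 matches in Cxcl1 and 2 in Cxcl2. GGAAGTG was in 6 of the 26 (8.64% of all), TATAAA in 6 (13%) and TGANTCA in 3 (6.87%). Ccl6 and Ccl9 share the runs acctttgccctc and gccctccacttcc, and each run is in 3 promoters in all. A match is a string of letters and not a shown binding site.

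Among the ligands, Ccl5, which draws T cells and monocytes, was the most abundant. In the natural killer-like cluster it stood at 39253, 36855, 30823, 27215, 26322, 19669 and 22763 CPM in libraries 1 to 7 (28986 ± 7147). In T-like cells it was at 3851, 1586, 2068, 1490, 1235, 1922 and 535 CPM (1812 ± 1029). Every library of the first cluster lay above every library of the second, and the log2 difference was 3.78 ± 0.41 SE (edgeR adjusted p = 2.47e-12). A UMI of Ccl5 was found in 310 of 313 natural killer-like cells (99.0%), in 31.0% of T-like cells and in 0.525% of proximal tubule-like cells, at median depths of 1990, 1875 and 2281 UMIs per cell. At 1000 UMIs per cell the first 2 shares were 98.4% and 25.5%.

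Within the T-like cluster Ccl5 followed the CD8 marker. Over all libraries 117 cells had a UMI of Cd8a and 108 had one of Cd4. They were compared in the 6 libraries with at least 5 of each, which leaves out library 7 with 3 and 6. Here as in the other splits, cells with both markers were left out. Ccl5 averaged 6015 CPM in the Cd8a cells and 627 CPM in the Cd4 cells and was higher in the Cd8a cells in 6 of 6 libraries (log2 difference 2.86 ± 0.43 SE, edgeR adjusted p = 0.000226). It was the only member that passed the count filter of that fit, in which 13.8% of the 356 genes tested differed. The natural killer marker list summed to 934 CPM in the T-like cluster (486 to 1330 over libraries), and its part in the Ccl5 level was not tested.

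Ccl5 in proximal tubule-like cells was low, at 0.564 to 10.9 CPM. The highest value was in library 3, in which natural killer-like cells were 3.76% of all cells, and the lowest in library 7, in which they were 0.131%. In library 4 their share was 3.07% and the Ccl5 level in cluster 3 was 3.93 CPM. Whether free RNA from natural killer-like cells gives this signal was not tested.

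Ccl3 and Ccl4, inflammatory ligands that draw leukocytes, were shared by natural killer-like, macrophage-like and neutrophil-like cells and spread widely over libraries. Ccl4 was at 1852, 182, 883, 2725, 878, 478 and 236 CPM in libraries 1 to 7 of the natural killer-like cluster (mean 1033). The highest library was 4 and the lowest 2, and the range overlapped that of the macrophage-like cluster, 0 to 1544 CPM. Against T-like cells Ccl4 was higher by 5.30 ± 0.46 SE on the log2 scale (edgeR adjusted p = 2.79e-16) and Ccl3 by 6.24 ± 0.61 (1.09e-12). Against cluster 10, macrophage-like cells had more Ccl4 (3.63 ± 0.48) and Ccl3 (3.27 ± 0.52, edgeR adjusted p = 1e-06).

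The mean of Ccl3 was highest in the neutrophil-like cluster, where 1 library set it. Ccl3 stood at 95.7, 4246, 0, 201 and 469 CPM in libraries 2, 4, 5, 6 and 7. Without library 4 the macrophage-like cluster ranked first. A UMI of Ccl4 was in 29.1% of natural killer-like cells, 21.5% of macrophage-like cells and 0.0415% of cluster 3 cells. Of the 65 natural killer-like cells with Ccl3, 46.2% also had Ccl4, against 24.6% of the cells without Ccl3. In macrophage-like cells the shares were 63.2% of 38 cells and 13.2%.

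Xcl1, the ligand that natural killer and CD8 T cells release towards Xcr1-bearing dendritic cells, had overlapping levels in natural killer-like and T-like cells. In natural killer-like cells it was at 946, 54.6, 80.9, 175, 150, 79.7 and 0 CPM in libraries 1 to 7, and in T-like cells at 172, 81.3, 162, 186, 30.4, 127 and 304 CPM. The first set has library 1 far above the rest, and the ranges overlap. The log2 difference was -0.01 ± 0.47 SE. Its receptor gene Xcr1 was detected in 12 cells of cluster 10, of which 6 had Clec9a, a gene of the same dendritic cells.

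In the contrast of natural killer-like with T-like cells, 6 of 22 members were higher and 4 lower, where 2.60% and 3.86% of all genes tested were. The members' median log2 difference was 0.00, against -0.15 over all genes. It includes 8 members with 0 UMIs in 1 or both clusters, which have no finite log2 difference. Besides Ccl5, Ccl3 and Ccl4, the higher ones included Cx3cr1, described with the receptors, and Ccl9. Ccl9 rests on 8 UMIs against 0, at least 10.3-fold higher by the limit that 3 counts in the T-like cluster set, and its call was lost without library 1 (edgeR adjusted p = 0.105) or library 3 (0.212). With DESeq2's Wald test Ccl5, Ccl3, Ccl4 and Cx3cr1 passed, and Ccl9, Ccr7, Ccr9, Cxcr6 and Cxcr3 did not, with adjusted p-values from 0.0564 for Ccr7 to 0.525 for Cxcr3.

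The myeloid ligands Ccl6 and Ccl9, which act through Ccr1, were high in cluster 10, and Ccl6 also in the neutrophil-like cluster. Ccl6 stood at 337, 660, 953, 536, 379, 488 and 673 CPM in libraries 1 to 7 of cluster 10 (mean 575). In libraries 2, 4, 5, 6 and 7 of the neutrophil-like cluster it stood at 2918, 5001, 761, 928 and 2138 CPM (mean 2349). In each of these 5 libraries the neutrophil-like level was the higher. Against the mean of clusters 10 and 11 it was higher by 2.33 ± 0.18 SE on the log2 scale (edgeR adjusted p = 8.75e-19).

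Ccl9 held steady in cluster 10, at 237 to 505 CPM in the 7 libraries (397 ± 114), and scattered in the neutrophil-like cluster at 0, 3869, 0, 150 and 365 CPM in libraries 2, 4, 5, 6 and 7. Library 4 set that mean of 877 CPM, and without it cluster 10 ranked first. The contrast of neutrophil-like cells with clusters 10 and 11 did not call Ccl9 (log2 difference 0.91 ± 0.44 SE, edgeR adjusted p = 0.159). Macrophage-like cells had less of both ligands than cluster 10. Ccl6 was lower by -2.26 ± 0.21 SE on the log2 scale (edgeR adjusted p = 2.97e-15) and Ccl9 by -2.93 ± 0.40. In cluster 10, 322 cells had Ccl6 and 231 had Ccl9, and Ccl9 was in 56.8% of the cells with Ccl6 and 21.2% of the cells without. The first cells were deeper, with a median of 2888 UMIs against 2236.

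Within cluster 10, cells with the monocyte gene Ly6c2 were compared with cells with the dendritic cell gene Cd209a in 4 libraries. These were libraries 1, 2, 5 and 7, with 19, 31, 30 and 43 Ly6c2 cells and 8, 8, 15 and 7 Cd209a cells. Over all libraries there were 225 and 39. Of the members tested, only Ccl6 passed, where 10.2% of the 636 genes tested did. It averaged 617 CPM in the Ly6c2 cells and 333 CPM in the Cd209a cells and was higher in 4 of 4 libraries (0.86 ± 0.24 SE, edgeR adjusted p = 0.0372), and the call was lost when any library was left out. Ccr2 (0.71 ± 0.27 SE, edgeR adjusted p = 0.125) and Ccl9 (0.55 ± 0.29) did not pass.

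Cxcl1 and Cxcl2, the neutrophil attractants that signal through Cxcr2, differed in their sources. Cxcl2 was at 3827, 472, 1180, 527 and 209 CPM in libraries 2, 4, 5, 6 and 7 of the neutrophil-like cluster (mean 1243) and at 0 to 519 CPM in macrophage-like cells. Library 2 stood far above the other 4. Against clusters 10 and 11, Cxcl2 was higher by 4.15 ± 0.53 SE on the log2 scale. It was also higher in macrophage-like cells than in cluster 10 (2.88 ± 0.70, edgeR adjusted p = 0.00184), but without library 7 the difference was 1.10 (edgeR adjusted p = 0.327).

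Of the 456 UMIs of Cxcl1, 411 were in proximal tubule-like cells. The levels there were 1.74, 1.01, 9.34, 13.9, 2.80, 15.1 and 0.282 CPM in libraries 1 to 7. Libraries 3, 4 and 6 were high and the other 4 low. The highest mean, 28.5 CPM in cluster 9, rests on 7 UMIs. Cxcl1 did not pass the count filter. With no filter it was lower in clusters 4 to 7 than in cluster 3 (-3.69 ± 0.37 SE, edgeR adjusted p = 5.29e-17 over 16272 genes).

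Cxcl16 is the membrane-bound ligand of Cxcr6. In the macrophage-like cluster it stood at 759, 708, 228, 747, 205, 377 and 779 CPM in libraries 1 to 7 (543 ± 262). All 7 values were above every value of the other clusters, whose highest mean was 78.5 CPM in cluster 9. Libraries 3, 5 and 6 were lower than the other 4. Macrophage-like cells exceeded cluster 10 by 3.87 ± 0.36 SE on the log2 scale (edgeR adjusted p = 2.36e-16). A UMI was found in 59.7% of macrophage-like cells (41.0% at 1000 UMIs per cell), at a median of 1724.5 UMIs, and in 10.5% of proximal tubule-like and 2.06% of T-like cells. Exons of Zmynd15 on the opposite strand overlap the gene, and the counting strand is not given in the sources used here.

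Because proximal tubule-like cells are so many, they held 72.6% of all Cxcl16 UMIs. Among kidney clusters the mean level was 58.3 CPM in principal-like, 56.4 in endothelial-like and 38.8 in proximal tubule-like cells, with overlapping ranges, and 7.88 in distal convoluted tubule-like cells. Cxcl16 was higher in cluster 1 than in the mean of clusters 3 to 7 (1.07 ± 0.27 SE, edgeR adjusted p = 3.99e-04). It was lower in the mean of clusters 4 to 7 than in cluster 3 (-1.14 ± 0.19, edgeR adjusted p = 6.25e-08).

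**Figure D2:**
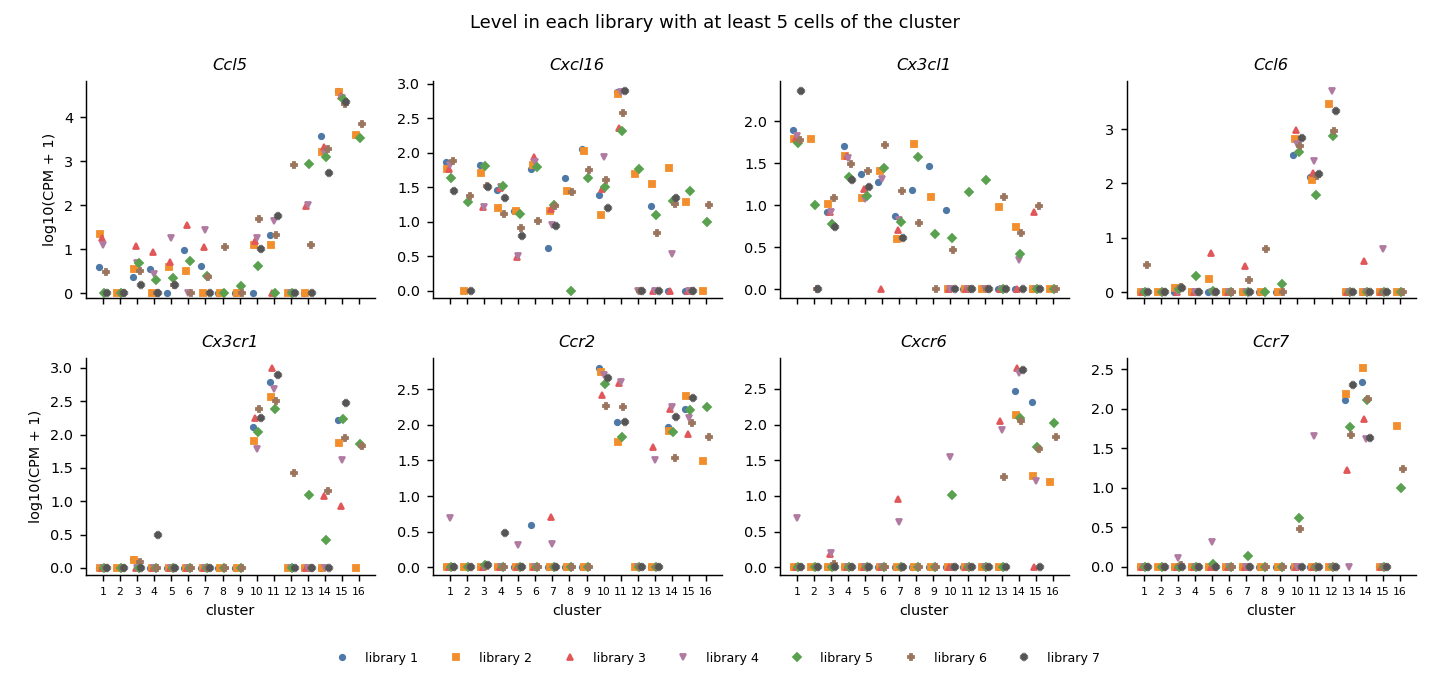
Level of 4 ligands (upper row) and 4 receptors (lower row) as log10(CPM + 1) in each library with at least 5 cells of the cluster (x axis, clusters 1 to 16), with 1 symbol per library. Ccl5 peaks in cluster 15, Cxcl16 in 11 over a floor in all clusters, Cx3cl1 in 1, and the receptors lie near 0 in clusters 1 to 9.

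Cx3cl1, the membrane-tethered ligand of Cx3cr1, had its highest level in the endothelial-like cluster. It stood there at 78.6, 60.2, 62.3, 66.2, 54.4, 59.03 and 228 CPM in libraries 1 to 7 (87.0 ± 62.8). In loop of Henle-like cells it was at 49.9, 37.4, 37.4, 36.0, 20.9, 30.2 and 18.7 CPM (mean 32.9). Every endothelial-like value was above every loop value, and library 7 stood far above the other 6. Cluster 1 exceeded the mean of clusters 3 to 7 by 2.02 ± 0.20 SE on the log2 scale (edgeR adjusted p = 1.05e-15). A UMI was in 12.8% of endothelial-like cells (7.13% at 1000 UMIs per cell), 1.90% of proximal tubule-like and 0.382% of T-like cells, with median depths of 1658, 2281 and 1875 UMIs.

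In cluster 1, cells with Ehd3, a gene of glomerular endothelium, were compared with cells with Plvap, a gene of fenestrated endothelium outside the glomerulus, in the 4 libraries with at least 5 of each. The 4 libraries compared were 1, 2, 6 and 7. They held 54, 77, 145 and 29 Ehd3 cells and 13, 22, 19 and 7 Plvap cells. Over all 7 libraries there were 565 and 66 such cells. Cx3cl1 averaged 176 CPM in the Ehd3 cells and 25.4 CPM in the Plvap cells and was higher in 4 of 4 libraries. Library 7 was the highest of the Ehd3 values at 353 CPM. Over all libraries the UMIs of Cx3cl1 were 114 and 6, a pooled level of 98.3 and 39.5 CPM. The 95% intervals for counting error, 81.1 to 118 and 14.5 to 86.0 CPM, overlap. Cxcl16 averaged 55.0 and 8.30 CPM, also higher in 4 of 4, with 68 and 2 UMIs over all libraries. The Plvap cells were at 0 CPM of Cxcl16 in libraries 1, 6 and 7, which so few cells can give by counting error. Cxcl12 went the other way, at 5.72 and 117.5 CPM, in 3 of 4 libraries, with 7 and 15 UMIs over all libraries. No member passed the count filter of that fit, in which 10.4% of the 944 genes tested differed, so these 3 are values with no test.

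In the contrast of cluster 1 with tubule clusters 3 to 7, 4 of 22 members were higher and none lower, where 25.8% and 22.3% of all genes tested were. With no count filter 6 were higher, the added ones being Cxcl1 and Ccl2. The median of the members was -0.51 on the log2 scale, against 0.01 over all genes. For 16 of the 22 a cluster of the contrast held 0 UMIs, so their log2 differences are not finite estimates. The median is therefore not read as a direction. The 4 were Cx3cl1, Cxcl16, Cxcl12 (1.81 ± 0.36 SE, edgeR adjusted p = 1.27e-05) and Cxcr4 (1.10 ± 0.44, 0.0316). The call for Cxcr4 was lost without library 1, 4 or 6 (edgeR adjusted p of 0.0742, 0.109 and 0.0828). With 1 coefficient per set of clusters Cx3cl1 alone passed (2.03 ± 0.35, edgeR adjusted p = 1.48e-06).

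Cxcl12, which retains cells through Cxcr4, was the main ligand of the proximal tubule besides Cxcl16. In cluster 3 it was at 22.6, 20.9, 106, 124, 10.2, 29.9 and 17.7 CPM in libraries 1 to 7 (mean 47.3). Libraries 3 and 4 stood above the other 5, whose mean was 20.3 ± 7.18 CPM. In endothelial-like cells the order of the libraries was not the same, with 11.3 and 7.79 CPM in libraries 3 and 4 and 23.9 to 79.1 in the others. The mean of clusters 4 to 7 lay below cluster 3 by -3.10 ± 0.25 SE on the log2 scale (edgeR adjusted p = 1.06e-20). This does not hold for each cluster. Loop of Henle-like cells averaged 21.9 CPM (14.9 to 32.5), and without libraries 3 and 4 they stood at 24.3 CPM against 20.3 in cluster 3. Distal convoluted tubule-like cells averaged 4.77 CPM over all libraries. The highest mean, 52.0 CPM in podocyte-like cells, came from 10 UMIs, at 121, 64.3, 22.9 and 0 CPM in libraries 2, 5, 6 and 7. A UMI of Cxcl12 was in 6.08% of cluster 3 cells (2.36% at 1000 UMIs per cell) and 1.53% of T-like cells.

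Ccl28, a ligand of Ccr10 and Ccr3 at epithelial surfaces, split the libraries the same way. In cluster 3 it was at 1.39, 0.807, 27.0, 45.1, 0.433, 3.21 and 0.188 CPM (mean 11.2). Without libraries 3 and 4 the mean was 1.21 CPM, and cluster 4 ranked first. Cxcl16 had the opposite order, at 65.8, 50.3, 15.1, 15.1, 62.7, 32.3 and 30.3 CPM in libraries 1 to 7 of cluster 3, with libraries 3 and 4 below the rest. In cluster 3 of libraries 3 and 4, Xist was at 0 and 0.302 CPM, within the 0.234 to 0.504 CPM of libraries 1, 2, 5 and 6 or below it, and Ddx3y at 44.6 and 46.3 CPM, below their 61.8 to 87.9 CPM. The fibroblast and mural cell markers, which mark another known source of Cxcl12, summed to 1.78 CPM in cluster 3 (0.236 to 5.92 over libraries), with Col3a1 at 0.

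The proximal tubule has segments that differ in their transporters. Cells of cluster 3 with a UMI of Slc5a2, the glucose carrier of the early segments, and not of Slc7a13 (7760 cells) were compared with those with Slc7a13, an amino acid carrier of the last segment, and not Slc5a2 (4813 cells). Their median depths were 2540.5 and 2541 UMIs. This and the other splits by marker genes were chosen after the levels by cluster had been seen. Of the 4 members tested 3 passed, where 23.3% of the 8276 genes tested did.

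Cxcl12 was at 8.10, 6.03, 111, 53.5, 5.93, 12.97 and 12.3 CPM in the Slc5a2 cells and at 54.5, 36.9, 113, 138, 25.9, 44.8 and 44.2 CPM in the Slc7a13 cells. It was higher in the Slc7a13 cells in 7 of 7 libraries (log2 difference of Slc5a2 minus Slc7a13 cells -1.80 ± 0.17 SE, edgeR adjusted p = 4.9e-19). Libraries 3 and 4 were the highest within either set of cells, so they stood apart within the segments too. They also held few Slc5a2 cells, 49 and 86, against 296 and 563 Slc7a13 cells, and library 7 held only 6 Slc7a13 cells.

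Cxcl16 ran the other way, at 109, 81.2, 14.9, 26.7, 84.3, 55.0 and 47.8 CPM in the Slc5a2 cells and 16.9, 15.3, 13.96, 8.59, 23.1, 14.9 and 88.4 CPM in the Slc7a13 cells. It was higher in the Slc5a2 cells in 6 of 7 libraries (2.05 ± 0.15 SE, edgeR adjusted p = 2.71e-27), and the exception was library 7 with its 6 cells. Cx3cl1 was higher in the Slc7a13 cells in 6 of 7 libraries (-0.83 ± 0.23, edgeR adjusted p = 0.00346). By a two-sided exact sign-flip permutation over libraries, p was 0.0156 for Cxcl12, the smallest possible. The same permutation gave p = 0.0938 for Cxcl16 and p = 0.0625 for Cx3cl1, which did not reach 0.05. Ccl28 averaged 4.61 CPM in the Slc5a2 and 14.5 CPM in the Slc7a13 cells over libraries and was higher in the latter in 6 of 7. Cxcl1 averaged 4.15 and 8.60 CPM, higher in the Slc7a13 cells in 5 of 7. Their UMIs were 15 and 200 for Ccl28 and 67 and 195 for Cxcl1. These sums mix libraries with unequal numbers of the compared cells and are not read as the size of a difference. Neither gene passed the count filter. For Ccl25 the difference was -0.41 ± 0.19 SE and missed the threshold (edgeR adjusted p = 0.121).

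**Figure D3:**
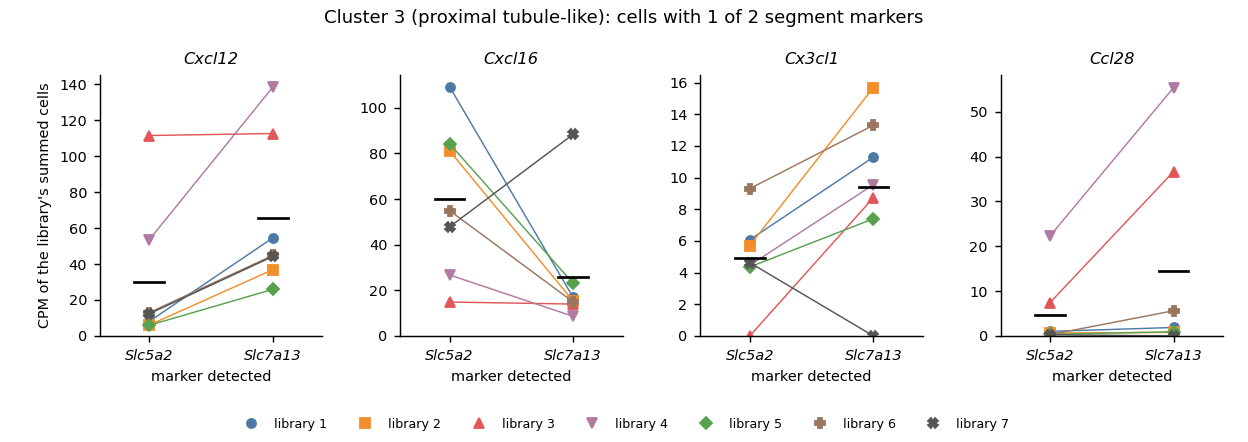
Level (CPM) of 4 ligands in cells of cluster 3 with Slc5a2 or Slc7a13, 1 line per library, with bars at the mean. Cxcl12 rises from left to right in all 7 libraries, Cxcl16 falls in 6, and libraries 3 and 4 are highest for Cxcl12 and Ccl28 on both sides.

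Ccl25, known as the thymic and gut ligand of Ccr9, was low and even across the kidney. It was at 10.4 to 19.4 CPM over the 7 libraries of proximal tubule-like cells (mean 13.3), at 9.29 to 29.3 in distal convoluted tubule-like cells (19.2) and at 14.7 on average in endothelial-like cells. These ranges overlap. The highest mean, 25.5 CPM in podocyte-like cells, is from 4 UMIs, at 0, 9.19, 45.7 and 46.9 CPM in libraries 2, 5, 6 and 7. With no filter it was lower in immune clusters 10 to 15 than in clusters 1 to 8 by a log2 difference of -1.88. Exons of Elavl1 on the opposite strand overlap the gene, and with the counting strand not given here its reads may be partly those of Elavl1.

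The interferon-induced ligands were scarce. Cxcl10 had 215 UMIs in all, with 90 of them in cluster 3 at 0 to 2.08 CPM. Its highest mean was 7.92 CPM in T-like cells, from 0, 0, 0, 1.22, 1.60, 31.7 and 21.0 CPM in libraries 1 to 7, so that 2 libraries set it. Exons of Art3 overlap Cxcl10 on the opposite strand. Cxcl9 had 73 UMIs, 69 of them in cluster 10 and 57 of those in library 5. Of the other ligands with few UMIs, Ccl12 was at 26.4 to 307 CPM in macrophage-like cells (78 of 80 UMIs). Ccl2, the ligand of Ccr2, had 25 of 55 UMIs there, and Ccl17 (31 UMIs) and Cxcl14 (12) rest on 2 UMIs and 1 UMI in the clusters with their highest means.

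Among the receptors, Cx3cr1 and Ccr2 differed between macrophage-like cells and cluster 10. Cx3cr1 stood at 610, 365, 989, 483, 244, 317 and 779 CPM in libraries 1 to 7 of the macrophage-like cluster (mean 541) and at 60.5 to 237 CPM in cluster 10 (mean 138). The ranges do not overlap, with 237 CPM in library 6 of cluster 10 just under 244 CPM in library 5 of the other. Macrophage-like cells were higher by 1.61 ± 0.28 SE on the log2 scale (edgeR adjusted p = 8.25e-06).

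Ccr2, the receptor by which monocytes leave the marrow, had the reverse order. It was at 620, 556, 260, 493, 373, 182 and 448 CPM in cluster 10 (mean 419) and at 110, 57.1, 380, 395, 66.1, 178 and 109 CPM in macrophage-like cells (mean 185). The ranges overlap, since in library 3 the macrophage-like level was the higher. Macrophage-like cells were lower by -1.95 ± 0.27 SE (edgeR adjusted p = 8.4e-09). Lymphocyte clusters carried Ccr2 as well. It averaged 160 CPM in natural killer-like cells (73.5 to 255 over libraries) and 108 CPM in T-like cells (33.6 to 174). Both ranges overlap the macrophage-like one.

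A UMI of Ccr2 was in 47.2% of cluster 10 cells (25.1% at 1000 UMIs per cell), at a median of 2652 UMIs, and in 0.0151% of cluster 3 cells. Cx3cr1 was in 52.6% of macrophage-like cells, 31.9% of cluster 10 cells and 0.0302% of cluster 3 cells. Inside cluster 10 the 2 receptors did not exclude each other: 30.9% of the 259 cells with Ccr2 and 32.8% of those without had Cx3cr1. These sets of cells differed in depth, with medians of 3256 and 2030 UMIs, so like shares do not mean like levels. Ly6c2 was in 61.4% of the cells with Ccr2 and 31.0% of those without, at the same unequal depths.

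In the contrast of macrophage-like cells with cluster 10, 7 of 22 members were higher and 4 lower, where 4.79% and 11.1% of all genes tested were. The median of the members was 0.01 on the log2 scale, against -0.07 over all genes. It includes 5 members with 0 UMIs in 1 or both clusters, which have no finite log2 difference. Among the 7 were Cxcl16, Cx3cr1, Ccl3, Ccl4, Cxcl2 and Ccl12 (6.39 ± 0.67 SE, edgeR adjusted p = 2.13e-09). The 4 lower were Ccr2, Ccl6, Ccl9 and Ccr9, which had 82 UMIs in cluster 10 and 0 in macrophage-like cells (at least 8.23-fold lower, with 3 counts over the cluster as the floor). With DESeq2's Wald test all 4 of these passed, but of the higher ones only Cxcl16 and Ccl4.

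Cx3cr1 was also a receptor of natural killer-like cells. It stood at 165, 72.8, 7.35, 41.0, 171, 88.6 and 295 CPM there (mean 120), with library 3 lowest, and exceeded T-like cells by 4.13 ± 0.51 SE on the log2 scale (edgeR adjusted p = 2.63e-09).

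Besides Ccr2, the T-like cluster carried 3 receptors of T cell traffic. Cxcr6, a receptor of tissue-resident and effector T cells, stood at 298, 136, 614, 528, 122, 112 and 576 CPM in libraries 1 to 7 (mean 341). Ccr7, which takes naive T cells to lymph nodes, was at 218, 325, 73.1, 40.4, 128, 132 and 41.9 CPM (mean 137). Libraries 3, 4 and 7 were the 3 highest for Cxcr6 and among the 3 lowest for Ccr7. Cxcr3, the receptor of Cxcl9 and Cxcl10, was at 132, 54.2, 146, 121, 35.2, 52.2 and 189 CPM (mean 104), again with libraries 3 and 7 highest. In the cycling lymphocytes it was at 134, 141 and 49.0 CPM in libraries 2, 5 and 6, within the T-like range.

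Cxcr6, Cxcr3, Ccr7 and Ccr9 differed between T-like and natural killer-like cells. Cxcr6 was lower in natural killer-like cells by -3.48 ± 0.42 SE on the log2 scale (edgeR adjusted p = 1.18e-09) and Cxcr3 by -1.91 ± 0.43 (0.00100). Ccr7 had 320 UMIs in T-like and 0 in natural killer-like cells (at least 27.5-fold lower), and Ccr9 had 86 and 0 (at least 7.40-fold lower). The floor is again 3 counts over the cluster. Without libraries 3 and 4 together, the calls for Cxcr3 (-1.065, edgeR adjusted p = 0.451) and Ccr9 (edgeR adjusted p = 0.121) were lost. The T lymphocyte marker list summed to 737 CPM in natural killer-like cells (128 to 2064 over libraries), and its part in these levels was not tested.

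Within the T-like cluster Ccr7 and Cxcr6 were seldom in the same cell. Of 1308 cells 192 had Ccr7, 482 had Cxcr6 and 3 had both. Cxcr6 was thus in 1.56% of the cells with Ccr7 and in 42.9% of those without, at median depths of 2104.5 and 1846.5 UMIs. Cells with Cd8a or Cd4 did not separate them: Cxcr6 averaged 195 and 346 CPM (lower in the Cd8a cells in 5 of 6 libraries, two-sided exact sign-flip permutation p = 0.406) and Ccr7 137 and 173 CPM (3 of 6, exact permutation p = 0.719). These are 2 of 19 such tests on marker splits, whose smallest possible p is 0.0312 with 6 libraries and 0.0156 with 7.

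B-like cells shared Ccr7 and carried Ccr10. Ccr7 was at 128, 154, 15.7, 0, 57.5, 46.1 and 201 CPM in libraries 1 to 7 (mean 86.0), overlapping the T-like range. Ccr10, the receptor of Ccl28 on plasma cells, was at 32.1, 8.57, 141, 123, 11.5, 104 and 50.1 CPM (mean 67.2). Libraries 3, 4 and 6 were high for Ccr10, and for 3 and 4 Ccr7 was at its lowest. Of the 29 cells with Ccr10 all had Jchain, the joining chain of secreted antibodies, against 29.1% of the other B-like cells, and 1 had Ms4a1, a gene of mature B cells. They were deep, with a median of 5398 UMIs against 1544.5. The 39 cells with Ccr7 had Jchain in 5.13% and Ms4a1 in 48.7%.

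In the contrast of B-like with T-like cells, 1 of 22 members was higher and 6 lower, where 6.50% and 7.55% of all genes tested were. The median of the members was -1.42 on the log2 scale, against -0.17 over all genes. It includes 7 members with 0 UMIs in 1 or both clusters, which have no finite log2 difference. The higher one was Ccr10 (5.29 ± 0.57 SE, edgeR adjusted p = 2.05e-11), which did not pass the count filter without library 3 or library 4 and gave an adjusted p of 0.52 with DESeq2's Wald test. With that test Ccl5 and Ccr2 passed among the lower ones. In edgeR these were Xcl1 (-4.37), Ccl5 (-3.61), Ccr2 (-3.37), Cxcr6 (-3.28), Cxcr3 (-2.48) and Ccr7 (-1.14 ± 0.33, edgeR adjusted p = 0.0111). Cxcr5, the receptor of B cell follicles, had 10 of its 14 UMIs in B-like cells and did not pass the filter. With no filter it was higher in B-like cells (3.37). Exons of Bcl9l overlap it on the opposite strand.

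Ccr9, the receptor of Ccl25, was at 91.9, 109, 130, 95.1, 71.5, 9.80 and 8.97 CPM in libraries 1 to 7 of cluster 10 (mean 73.7), with libraries 6 and 7 far below the other 5. Of the 30 cells with Ccr9 in this cluster, 29 had Siglech, a gene of plasmacytoid dendritic cells (96.7%), against 2.89% of the other cells. Exons of Slc6a20a overlap Ccr9 on the opposite strand. Ccr9 was lower, at 32 and 30 CPM, in B-like and T-like cells.

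**Figure D4:**
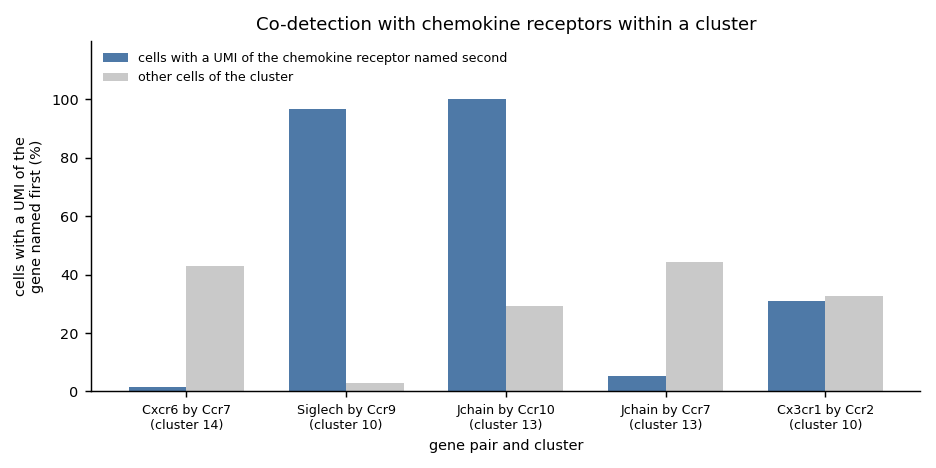
Share of cells (%) of a cluster with a UMI of the gene named first, among cells with a UMI of the receptor named second (blue) and the other cells of the cluster (grey). Cxcr6 is rare among Ccr7 cells, Siglech and Jchain are near or at 100% among Ccr9 and Ccr10 cells, and the bars for Cx3cr1 by Ccr2 are close to each other.

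Cxcr2 and Ccr1 were the receptors of the neutrophil-like cluster. Cxcr2, the neutrophil receptor of Cxcl1 and Cxcl2, had 55 of its 70 UMIs there, at 94.4 to 834 CPM in the 5 libraries with enough cells. It is 1 of the genes that named the cluster. Ccr1, a receptor of Ccl3, Ccl5, Ccl6 and Ccl9, was at 50.1 to 261 CPM with 22 of 58 UMIs. In the contrast with clusters 10 and 11, 6 of 22 members were higher and 4 lower, where 2.46% and 11.8% of all genes tested were. The median was 0.70 for the members and -0.74 for all genes. It includes 9 members with 0 UMIs in a cluster of the contrast, which have no finite log2 difference.

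The higher ones were Cxcr2 (9.04 ± 0.82 SE, edgeR adjusted p = 2.76e-12), Cxcl2, Ccl6, Ccr1 (2.69 ± 0.55, 2.23e-04), Ccl3 (1.65 ± 0.52, 0.0213) and Ccl5 (3.21 ± 0.89, 0.00619). Ccl5 rests on 1 library, since without library 6 the value was -6.67 (edgeR adjusted p = 0.584). The lower ones included Cx3cr1 (-5.55 ± 0.88), Cxcl16 (-2.66 ± 0.82, edgeR adjusted p = 0.0164) and Ccr2. Neutrophil-like cells had 0 UMIs of Ccr2, which puts it at least 18.4-fold under cluster 10. Without library 4 the difference of Ccl3 was 0.52 (edgeR adjusted p = 0.714). The call for Cxcl16 was lost without library 4, 6 or 7. With DESeq2's Wald test Ccl6 passed among the higher and Cx3cr1, Ccr2 and Cxcl16 among the lower, and Ccr1 was given no adjusted p.

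Cxcr4, the receptor of Cxcl12, was found in immune and kidney clusters alike and gave most of the receptor UMIs in the latter. It averaged 50.03 CPM in cluster 10 (15.5 to 101), 39.6 in B-like, 33.5 in T-like and 32.4 in macrophage-like cells, with overlapping ranges. In the neutrophil-like cluster it was at 335, 0, 18.9, 75.2 and 156 CPM in libraries 2, 4, 5, 6 and 7, from 14 UMIs. Among kidney clusters the intercalated-like cells led with the double-marker cluster 8, at 25.6, 33.5, 4.05, 14.6, 19.3, 14.4 and 10.9 CPM in libraries 1 to 7 of cluster 7 (17.5 ± 9.73). In cluster 3 it was at 0 to 0.394 CPM, under the whole range of cluster 7. A UMI was in 6.13% of the 1729 intercalated-like cells, at a median of 3917 UMIs, and in 0.0604% of cluster 3 cells at 2281.

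In the contrast of clusters 4 to 7 with cluster 3, 2 of 22 members were higher and 2 lower, where 31.4% and 29.1% of all genes tested were. The median of the members was -0.13, against 0.04 over all genes. For 15 of the 22 a cluster of the contrast held 0 UMIs, so this median is not read as a direction either. Higher were Cxcr4 (4.28 ± 0.43 SE on the log2 scale, edgeR adjusted p = 6.11e-16) and Cx3cl1 (1.10 ± 0.19, 2.62e-07), and lower were Cxcl12 and Cxcl16, and all 4 also passed with DESeq2's Wald test. With no filter Cxcl1 and Ccl28 (-2.51 ± 0.32, edgeR adjusted p = 1.4e-11) were lower as well.

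Intercalated cells come as an acid-secreting type with the exchanger Slc4a1 and a bicarbonate-secreting type with Slc26a4. Cxcr4 was split between them, with 4 UMIs in the 631 cells of cluster 7 that had Slc4a1 and 124 UMIs in the 867 that had Slc26a4. In libraries 1 to 7 it was at 43.1, 48.4, 8.64, 31.5, 26.1, 27.3 and 20.5 CPM in the Slc26a4 cells and at 0 to 5.08 CPM in the Slc4a1 cells. Every library's Slc26a4 value exceeded all Slc4a1 values, and the means were 29.4 and 1.60 CPM (higher in 7 of 7 libraries, two-sided exact sign-flip permutation p = 0.0156, the smallest possible). The Slc26a4 cells were deeper, with a median of 4804 against 3740 UMIs.

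The ligand Cx3cl1 had the opposite order in the same cells. It averaged 12.5 CPM in the Slc4a1 and 2.38 CPM in the Slc26a4 cells and was higher in the Slc4a1 cells in 7 of 7 libraries (exact permutation p = 0.0156). Cxcl16 averaged 15.2 and 7.08 CPM (6 of 7, exact permutation p = 0.0625). None of the members passed the count filter of edgeR's fit of this split, in which 20.2% of the 4054 genes tested differed.

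**Figure D5:**
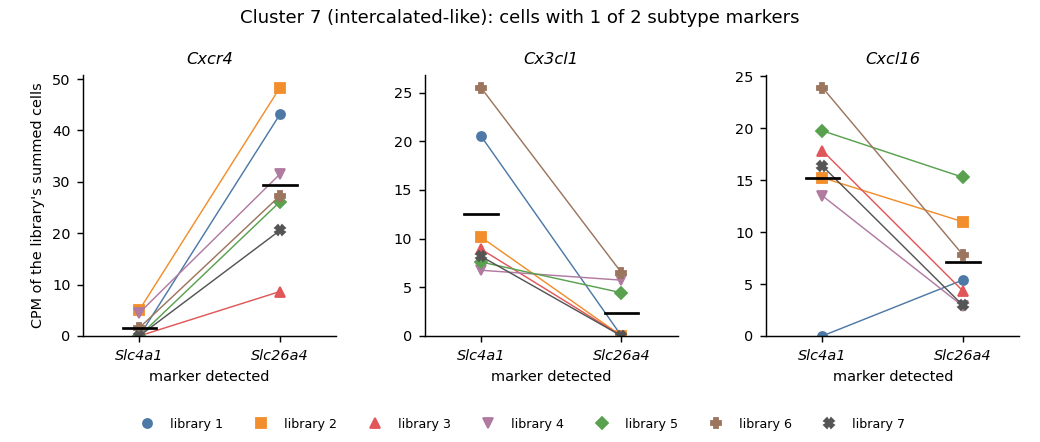
Level (CPM) of Cxcr4, Cx3cl1 and Cxcl16 in intercalated-like cells with Slc4a1 or Slc26a4, 1 line per library, with bars at the mean. Cxcr4 is higher on the right in 7 of 7 libraries and Cx3cl1 on the left in 7 of 7.

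Other receptors with few UMIs were Ccr6 (37), Ccr4 (14) and Xcr1 (41). Xcr1 had 31 UMIs in cluster 10, of which 23 were in library 5. Ccr4 and Ccr6 had their highest means in the cycling lymphocytes, from 3 and 7 UMIs.

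Other genes of the chemokine system were read from the same contrasts by list, beside the share of all genes tested that passed. Of the 23 signalling genes tested, 16 were higher in immune clusters 10 to 15 than in clusters 1 to 8 and 2 were lower (16.1% and 36.6% of all genes), with a median log2 difference of 4.60 against -0.29 over all genes. The largest were Rac2 (9.55), the actin regulator Coro1a (9.18), the Rac activator Dock2 (8.07) and Rgs1 (7.60), which shuts off G protein signals. In cluster 1 against the tubule 13 were higher and 1 lower (25.8% and 22.3% of all genes), led by Elmo1 (5.24), the partner of Dock2, and Gng2 (5.15). In clusters 4 to 7 against cluster 3, 6 were higher and 4 lower, shares not above the 31.4% and 29.1% of all genes.

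Of the 7 chemokines and receptors under other symbols that were tested, 2 were higher and 3 lower in the immune clusters, too few to set apart from the 16.1% and 36.6% of all genes. Higher were Cd74 (6.60), the class II chaperone that also binds Mif, and Ccrl2 (4.45), and the lower ones included Ackr3 (-2.67), the scavenger of Cxcl12. In cluster 1 against the tubule 4 were higher (25.8% of all genes), among them Ccrl2 (7.88), Cmklr1 (5.49) and Ackr3 (1.92), and 2 lower (22.3%). Pf4 was the largest of 3 that were higher in macrophage-like cells than in cluster 10 (10.7), where 4.79% of all genes were. Ackr3 was lower in the mean of clusters 4 to 7 than in cluster 3 (-1.96), as Cxcl12 was.

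Of 6 proteases and sulphating enzymes tested, Anpep (-2.30) and Dpp4 (-1.78), which trim chemokine ends at the brush border, were lower in clusters 4 to 7 than in cluster 3, and Tpst2 (0.94) and Adam17 (0.75), the sheddase of Cx3cl1, were higher, counts near the 29.1% and 31.4% of all genes. Mmp9 was higher in neutrophil-like cells than in clusters 10 and 11 (6.74). Of the 11 regulators of the NF-kappaB and interferon pathways, 8 were higher in the immune clusters (16.1% of all genes). In cluster 1 against the tubule 9 were higher (25.8% of all), and in clusters 4 to 7 against cluster 3, 8 were higher and 1 lower (31.4% and 29.1%). In macrophage-like cells against cluster 10, 5 were lower and none higher (11.1% and 4.79%).

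Genes that cell dissociation is known to induce also differed in these contrasts, and their part in the chemokine levels was not tested. Of 12 tested, 7 were higher and 1 lower in the immune clusters (16.1% and 36.6% of all genes) and 9 and 1 in cluster 1 against the tubule (25.8% and 22.3%). In clusters 4 to 7 against cluster 3, 9 were higher and 2 lower (31.4% and 29.1%). In neutrophil-like cells 5 were higher and 2 lower (2.46% and 11.8%), and in macrophage-like cells against cluster 10 none was higher and 3 were lower (4.79% and 11.1%).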

How the data were processed

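For the 10x 3′ libraries, the submitters' processing notes name Cell Ranger 1.3, the aligner STAR and the build mm10 (GRCm38.p4). The authors deposited 1 matrix of raw UMI counts per gene and cell, with their cluster number for each cell. How cells were filtered, clustered or freed of doublets is not given in the sources used here.

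For each cluster the counts of a library's cells were added up if it had 5 or more of them (96 sums), and these were tested with edgeR 4.0.16 in R 4.3.3 (TMM, filterByExpr by cluster, quasi-likelihood F test, terms for cluster and library). Contrasts over several clusters average their coefficients. Marker splits were fitted with the library as a pairing term, and the exact tests flip the signs of library differences. Detection was also computed after thinning each cell to 1000 UMIs, which left out 2494 shallower cells. Sequences and promoters are from RefSeq (GRCm38.p6) and gene positions from GENCODE vM21. Levels at 0 UMIs were given a floor of 3 counts, and intervals and floors cover counting error only. Depth per library stands at the start of the report and limits most genes with under 100 UMIs.

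The members, gene lists and tests were chosen with earlier results of these data known. All members may be named, with values per library in their highest cluster for those with at least 100 UMIs in all cells (and for Ccr10 and in other clusters, chosen after the values were seen), and up to 4 genes per other list with the largest differences among those that passed; Jchain, Siglech, Ly6c2, Ms4a1, Clec9a and the genes that split clusters were chosen as cell type markers. Alternatives were DESeq2 1.42.0, its size factors in edgeR, no count filter, at least 20 cells per sum, thinned counts, leaving out the top 6% of cells by Scrublet score (scanpy 1.11.5), no library block, only the compared clusters, and each library left out. Leaving out libraries 3 and 4 together and 1 coefficient per set of clusters were added after seeing the data. The procedure was tested on simulated data. 1 member that enters the counts is not reported here.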

Additional observations from a re-analysis of the deposited data

Results flagged for a closer look

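In 21 groups of 4 to 7 libraries, each the cluster with the highest mean of a gene, the highest or lowest library was tested for its distance from the rest. Chance flags about 1 group in 20, and 6 were flagged. Xcl1 in natural killer-like cells stood at 946 CPM in library 1 and at 0 to 175 CPM in the others. Cxcl1 in cluster 9 was at 111.8 CPM in library 6 and at 0 to 2.20 CPM in the other 3, from 7 UMIs in all. Cxcl2 in neutrophil-like cells was at 3826 CPM in library 2 and at 209 to 1180 CPM in the other 4. In library 4 of the same cluster Ccl9 was at 3869 CPM, against 0 to 365 CPM, and Ccl3 at 4246 CPM, against 0 to 469 CPM. Cx3cl1 in endothelial-like cells was at 228 CPM in library 7, against 54.4 to 78.6 CPM, and library 7 is also the one that stands apart by Xist. The 74 neutrophil-like cells are spread over 5 libraries, so that each of their values rests on few cells.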

How the results depend on the processing

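The numbers of members that passed in each contrast, of the 22 tested, were recomputed under each alternative, and those named here moved by over 1.5 times or past 0. With no count filter, 2 members were lower in the immune clusters, 2 higher in B-like cells and 4 lower in clusters 4 to 7. With at least 20 cells per sum, 2 were lower in the immune clusters and 0 lower in neutrophil-like cells, and 20 of 34 members kept their highest cluster. With cells thinned to 1000 UMIs, 18 members were tested, of which 2 were higher and 0 lower in the immune clusters, 0 higher in B-like cells, 1 higher in cluster 1, and 1 higher and 1 lower in clusters 4 to 7. With only the compared clusters in the fit, 3 to 8 members passed the filter, and 2 were higher and 1 lower in natural killer-like cells, 2 higher in macrophage-like, 3 higher and 2 lower in neutrophil-like, and 0 higher and 2 lower in B-like cells. Without libraries 3 and 4, 2 were lower in natural killer-like and 0 higher in B-like cells. With 1 coefficient per set of clusters, 20 were higher and 2 lower in the immune clusters and 1 higher in cluster 1. With DESeq2's Wald test, 16 were higher and 2 lower in the immune clusters, 0 lower in natural killer-like cells, 2 higher in macrophage-like, 1 higher in neutrophil-like, 0 higher and 2 lower in B-like cells, and 4 higher in clusters 4 to 7. Apart from the smaller sets tested, the cause was not tested.

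Without each library in turn, the counts ran from 3 to 5 higher in the immune clusters, 2 to 4 lower in neutrophil-like cells and 0 to 1 higher in B-like cells. Of the 52 calls for single members, 41 held in every such fit that tested them and 11 were lost at least once, and Ccr10 in B-like cells was not tested without library 3 or 4. Ccl5 in neutrophil-like cells ranged from -6.67 to 3.79 on the log2 scale and is the only value that reversed. All fits were blocked on the barcode library, and dropping the block moved no count by over 1.5 times. Depth limits the 12 members with under 100 UMIs and the neutrophil-like, podocyte-like and cycling clusters most.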
